A study of Mus musculus with 4 samples.

Results

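The genes Klk1b27, Klk1 and Klk8 were examined in mouse mammary organoids grown in 4 matrices. They were found by their symbols in both gene expression matrices and are 3 of 26 listed kallikrein genes and 3 of 32285 listed genes. They were chosen from measured values of these same cells, in which Klk1b27 and Klk1 lay among the genes with the highest ratio of STIFF to SOFT, so their levels are given as a description, with no test. Organoids came from mammary fat pads of virgin mice aged 8 to 9 weeks, with the lymph nodes taken out; strain and genotype are not given in the sources used here. The conditions are stiff (STIFF), soft (SOFT), collagen (COL1) and Matrigel (MATR, a basement membrane extract), and the labels say no more of what the soft and stiff matrices are made of. Cells of each condition were marked with a hashtag, an antibody that carries a DNA barcode, and COL1 was pooled with STIFF and MATR with SOFT, each pool in 1 channel of a droplet instrument. Each condition is thus taken as 1 culture, and a ratio between conditions has no replicate check. STIFF over SOFT and COL1 over MATR run across channels, where condition and channel cannot be told apart, whereas STIFF over COL1 and SOFT over MATR lie within a channel. The 4 comparisons share conditions with one another and are not independent.

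Kallikreins are secreted serine proteases whose genes stand side by side in 1 cluster. Klk1, tissue kallikrein, releases kinins from kininogens, and kinins act on blood vessels and epithelia through G protein-coupled receptors. Klk1b27 belongs to the Klk1b genes, a rodent-specific set of copies of the glandular kallikrein gene. Klk8, also called neuropsin, is a trypsin-like enzyme best known from the hippocampus and the epidermis. The mammary epithelium has an inner luminal layer, of hormone receptor-positive and hormone receptor-negative cells, and an outer contractile basal layer.

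The promoter windows are shown because Klk1b27 and Klk1 were high in the same cells and Klk8 in others. All 3 were found in the RefSeq promoter table of GRCm38.p6, the mm10 build, and lie on the plus strand of chromosome 7. The window is chr7:44052040-44052339 for Klk1b27 and chr7:44225110-44225409 for Klk1, each with 250 bases before the gene's start and 50 from it, and chr7:43797327-43797626 for Klk8, with 205 before the start of the gene record and 95 from it. Capitals mark the longest run of letters shared by Klk1b27 and Klk1, of 16 bases, and in Klk8 a GC box.
Klk1b27: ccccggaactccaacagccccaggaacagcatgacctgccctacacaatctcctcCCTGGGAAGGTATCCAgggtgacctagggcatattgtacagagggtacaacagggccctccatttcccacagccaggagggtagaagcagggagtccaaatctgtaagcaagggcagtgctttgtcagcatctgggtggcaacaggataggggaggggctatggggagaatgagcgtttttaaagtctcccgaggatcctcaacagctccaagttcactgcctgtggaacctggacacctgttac
Klk1: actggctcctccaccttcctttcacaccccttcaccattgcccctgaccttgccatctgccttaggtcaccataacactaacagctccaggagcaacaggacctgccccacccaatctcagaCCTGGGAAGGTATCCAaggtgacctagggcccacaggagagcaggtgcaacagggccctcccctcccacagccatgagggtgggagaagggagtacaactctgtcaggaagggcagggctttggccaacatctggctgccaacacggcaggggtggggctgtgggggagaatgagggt
Klk8: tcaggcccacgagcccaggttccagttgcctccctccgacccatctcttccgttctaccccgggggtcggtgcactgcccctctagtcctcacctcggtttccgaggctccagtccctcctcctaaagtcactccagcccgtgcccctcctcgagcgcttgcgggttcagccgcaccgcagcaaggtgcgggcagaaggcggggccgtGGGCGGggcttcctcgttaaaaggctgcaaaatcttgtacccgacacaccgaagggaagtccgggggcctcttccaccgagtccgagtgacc
In a local alignment, the Klk1b27 and Klk1 windows were identical in 186 of 234 columns (79.5%), against 49.5% for Klk1b27 with Klk8 and 49.1% for Klk1 with Klk8. The window of Klk1b27 was 92.8% identical to that of Klk1b21 and 90.0% identical to that of Klk1b24. It was also 85.3% identical to that of Klk1b26, which was not counted in hormone receptor-positive luminal cells of any condition. With Klk1b3, of which no RNA molecule was counted in kept cells, it was 80.1% identical. Likeness of the windows is thus not read as a link to expression. The motifs were searched on both strands. The GC box GGGCGG was in Klk8 and in neither other window, and 35.9% of 27025 promoters hold it. In Klk8 it starts at base 209 of the window, past the start of the gene record. The TATA box TATAAA, held by 14.2% of promoters, and the steroid receptor half-site TGTTCT, held by 19.0%, were in none of the 3 windows. No other half-site, such as that of the oestrogen receptor, was searched, so nothing is said of those. The end of the Klk1 window resembled a stretch that lies before the end of the Klk1b27 window. The bases past it were thus searched only in Klk1b27. The starts of Klk1b27 and Klk1 lie 173.1 kb apart, within a cluster of 548.7 kb, and that of Klk8 lies 254.8 kb from Klk1b27.

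The pool of COL1 and STIFF held 133608252 UMIs (counted RNA molecules) in 10615 barcodes, and that of MATR and SOFT 131036333 UMIs in 8767 barcodes. After filters, 9568 and 7945 barcodes were kept, with medians of 10087.5 and 12626 UMIs. Hashtags placed 2451 cells in STIFF, 1941 in SOFT, 1563 in COL1 and 2333 in MATR, and 5249 and 3394 cells carried neither tag. The labels do not say which tag marks which condition, so the pairing rests on how the matrices are named; with the tags exchanged, STIFF and COL1 would swap values, as would SOFT and MATR, and each ratio within a channel would turn round. Of the kept barcodes, 19 occurred in both pools. Clusters were named by marker genes, with the kallikrein genes left out of the clustering. In the clusters named hormone receptor-positive luminal-like (HR+ below), 10 of 11 listed markers reached 20 CPM in each condition, where CPM (counts per 1000 UMIs, times 1000) is a gene's part of all UMIs of the cells. Their summed level was 9832 CPM in STIFF, 7920 CPM in SOFT, 8654 CPM in COL1 and 8914 CPM in MATR, while Tnfsf11 was at 0. Basal markers summed to 34.4 to 91.8 CPM there. Hormone receptor-negative luminal markers summed to 1463 CPM in STIFF, 2345.5 CPM in SOFT, 1831 CPM in COL1 and 1038 CPM in MATR. Of that list 6 of 11 reached 20 CPM in each condition. Fibroblast markers summed to 1143, 1239, 1640 and 1690 CPM in the same order, with 1 of 7 at 20 CPM. Where these counts come from was not tested. A cluster with both luminal marker lists, of 1164 cells at a median of 27571.5 UMIs, and a smaller one with hormone receptor-negative luminal (HR-) and basal markers stayed unnamed.

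Klk1b27 was found mainly in HR+ cells of the STIFF condition. Its level in HR+ cells was 396 CPM in STIFF (95% interval 386 to 407, 6002 UMIs in 1075 cells), 0.874 CPM in SOFT (0.466 to 1.495, 13 UMIs in 1026 cells), 16.3 CPM in COL1 (13.4 to 19.7, 108 UMIs in 524 cells) and 10.8 CPM in MATR (9.36 to 12.5, 193 UMIs in 1248 cells). STIFF stood far above the other 3 conditions, COL1 and MATR lay close to each other, and SOFT was lowest. These intervals, like all others here, are exact and cover counting error only. The ratio of STIFF to SOFT was 453 (265 to 852), place 4 of the 11289 genes with at least 50 UMIs in the 2 conditions together. STIFF was 24.3-fold above COL1 within the same channel (20.1 to 29.6), place 2 of 10856 genes. COL1 was 1.51-fold above MATR (1.18 to 1.92). The ratio of SOFT to MATR was 0.0807 (0.0422 to 0.141), so SOFT was 12.4-fold lower. The size of the ratio to COL1 depended on how hashtags were read: by a margin between the 2 tags it was 4.72, with 345 CPM in STIFF and 73.0 CPM in COL1, and COL1 was then 6.74-fold above MATR.

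**Figure D1:**
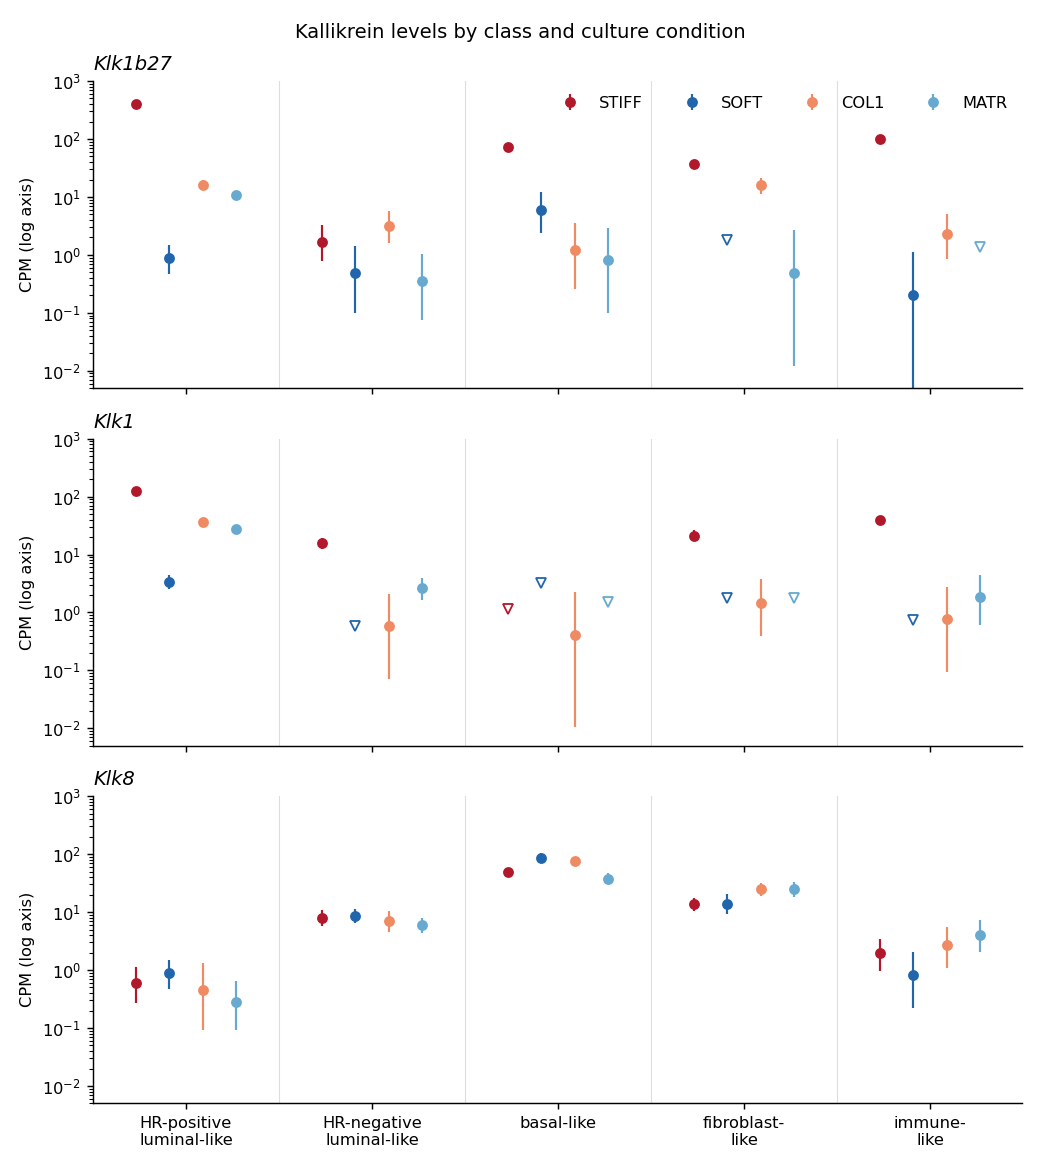
Level of Klk1b27, Klk1 and Klk8 in CPM (log axis) in 5 cell classes of STIFF, SOFT, COL1 and MATR, with exact 95% Poisson intervals; an open triangle is the upper bound where no UMI was counted. Klk1b27 and Klk1 are highest in HR+ cells of STIFF (396 and 124 CPM), and Klk8 in basal-like cells of every condition.

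Of the 3 members, Klk1b27 and Klk1 were at least 2-fold higher in STIFF than in SOFT in HR+ cells, beside 2.38% of all genes measured there. The same pair was at least 2-fold higher in STIFF than in COL1, beside 1.34% of genes, and at least 2-fold lower in SOFT than in MATR, beside 1.09% of genes. None of the 3 was 2-fold higher in COL1 than in MATR, beside 1.32% of genes. Klk8 had fewer than 50 UMIs in HR+ cells in each comparison. Since Klk1b27 and Klk1 were known for their ratio of STIFF to SOFT, and the comparisons share conditions, nothing is read from these counts.

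A small number of cells held most of the Klk1b27 UMIs. In STIFF, 161 of 1075 HR+ cells (14.98%, interval 12.9 to 17.3%) had a Klk1b27 UMI, against 4 of 1026 (0.390%) in SOFT, 22 of 524 (4.198%) in COL1 and 12 of 1248 (0.962%) in MATR. With UMIs drawn down to 5000 per cell, and cells with fewer left out, these shares were 11.9%, 0.295%, 3.25% and 0.579% in the same order of conditions. Cells with at least 5 Klk1b27 UMIs numbered 97 in STIFF, 1 in SOFT, 2 in COL1 and 3 in MATR. The 97 cells of STIFF carried 98.3% of its Klk1b27 UMIs, 17 cells carried at least 50% of them, and the highest single cell had 352. The highest cell had 6 UMIs in SOFT, 53 in COL1 and 82 in MATR, so that single cells also made up much of the COL1 and MATR levels. Without the highest cell of each condition, a calculation added after seeing the data, the ratio was 792 for STIFF over SOFT and 44.8 for STIFF over COL1.

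**Figure D2:**
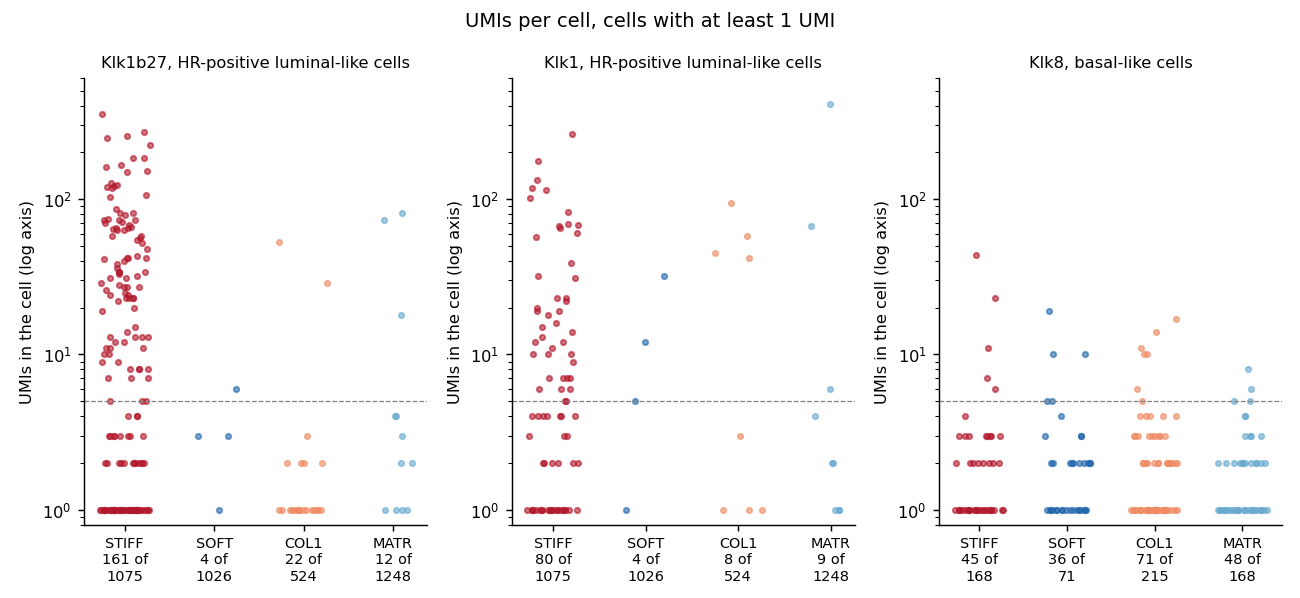
UMIs of Klk1b27 and Klk1 in each positive HR+ cell and of Klk8 in each positive basal-like cell (log axis) by condition, with a dashed line at 5 UMIs. STIFF has 97 HR+ cells at or above 5 Klk1b27 UMIs, against 1 to 3 such cells in each other condition.

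Without hashtags only the pools can be set apart, so STIFF cannot be told from COL1, nor condition from channel. Over all HR+ cells of a pool, tagged cells included, Klk1b27 was at 287 CPM with COL1 and STIFF (252 of 2248 cells with a UMI). It was at 4.69 CPM with MATR and SOFT (17 of 3353 cells). HR+ cells that carried neither tag had 248 CPM in the COL1 and STIFF pool (61 of 612 cells) and no Klk1b27 UMI in 1014 cells of the MATR and SOFT pool, which allows a share of cells with a UMI of up to 0.296%, taken as 3 cells of 1014.

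In STIFF, Klk1b27 was lower in each other class than in HR+ cells, but not so in SOFT and COL1. In SOFT, basal-like cells had 6.01 CPM, with all 7 UMIs in 1 cell, and the unnamed cluster with both luminal marker lists had 7.05 CPM, against 0.874 CPM in HR+ cells. In COL1 that unnamed cluster had 28.1 CPM, against 16.3 CPM in HR+ cells. In HR- luminal-like cells its level was 1.70 CPM in STIFF, 0.482 CPM in SOFT, 3.20 CPM in COL1 and 0.359 CPM in MATR. The 9 positive HR- cells of STIFF had 1 UMI each; they were 4.97% of cells at a median depth of 25957 UMIs, and 0.552% at 5000 UMIs per cell, whereas HR+ cells of STIFF had a median depth of 12245 UMIs. HR+ cells of STIFF thus had the higher share at the lower depth. In COL1, 11.5% of fibroblast-like and 3.90% of immune-like cells had a UMI, at medians of 8606 and 13784 UMIs, against 4.198% of HR+ cells at 10349, so the COL1 share of HR+ cells lay between them. At 5000 UMIs per cell the COL1 shares were 3.25% of HR+, 0.690% of fibroblast-like and 1.38% of immune-like cells. That step left out 90 of 235 fibroblast-like and 9 of 154 immune-like cells. At 2000 UMIs per cell 69 fibroblast-like cells were left out and their share was 3.01%. The order of the classes in COL1 thus changed with the depth and the cells kept, and none is read from it. In SOFT, 0.390% of HR+ cells at a median of 12984.5 UMIs and 0.382% of immune-like cells at 16458.5 had a UMI, and at 5000 UMIs per cell 0.295% of HR+ and 0 of 257 immune-like cells. In MATR, 0.962% of HR+ cells had a UMI, beside 1 of 106 fibroblast-like and 0 of 158 immune-like cells. With so few positive cells, a difference between classes in these shares was not detectable in SOFT or MATR at this depth. By level, HR+ cells of MATR, at 10.8 CPM, lay above HR- cells, at 0.359 CPM, but single cells made up much of the HR+ level.

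In STIFF, other classes also held some cells with many Klk1b27 UMIs. The level was 98.1 CPM in immune-like, 71.5 CPM in basal-like and 36.4 CPM in fibroblast-like cells of STIFF. In basal-like cells, 131 of 230 UMIs lay in 1 cell, and the level was 2.10 CPM without the cells of highest doublet score. The same step gave 16.8 CPM in fibroblast-like cells and 86.8 CPM in immune-like cells. The 10 immune-like cells with at least 5 Klk1b27 UMIs held 95.7% of the immune-like UMIs and had a median of 38746 UMIs in all, against 18187 over the class. The HR+ marker Prlr was at 2105 CPM in those 10 cells, against 644 CPM in the other immune-like cells of STIFF. Cells with at least 5 Klk1b27 UMIs also had more Prlr among fibroblast-like (1234 against 352 CPM) and basal-like cells (913 against 391 CPM). In the unnamed clusters Klk1b27 was at 151 CPM in STIFF, 5.01 CPM in SOFT, 22.9 CPM in COL1 and 4.22 CPM in MATR. Whether barcodes with 2 cells account for these was not tested further. Barcodes without a tag that were assigned to fibroblast-like cells, of a median of 1456.5 UMIs, had 48.6 CPM in the COL1 and STIFF pool, and the part of free RNA in this was not tested.

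Klk1b27 was uneven between the 2 clusters of HR+ cells. In the first, which was led by Krt78, Fam13a and Prlr, its level was 755 CPM in STIFF, 1.06 CPM in SOFT, 32.1 CPM in COL1 and 15.9 CPM in MATR. In the second, led by Sprr1a, Areg and Reg3b, it was 25.9 CPM in STIFF, 0.725 CPM in SOFT, 3.31 CPM in COL1 and 0.679 CPM in MATR. Klk1b27 itself was among the leading genes of the first cluster, so these values only describe it. The first cluster held 565 of 1075 HR+ cells in STIFF, 487 of 1026 in SOFT, 255 of 524 in COL1 and 871 of 1248 in MATR.

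Klk1 had the same order of conditions in HR+ cells as Klk1b27, with smaller ratios. Its level was 124 CPM in STIFF (119 to 130, 1881 UMIs), 3.36 CPM in SOFT (2.50 to 4.43, 50 UMIs), 37.1 CPM in COL1 (32.6 to 41.99, 245 UMIs) and 27.8 CPM in MATR (25.4 to 30.4, 495 UMIs). STIFF was 36.9-fold above SOFT (27.9 to 49.95, place 7 of 11289 genes) and 3.35-fold above COL1 (2.93 to 3.85, place 39 of 10856). COL1 was 1.33-fold above MATR (1.14 to 1.56), and SOFT was 8.27-fold below MATR, a ratio of 0.121 (0.0886 to 0.162).

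Single cells set the Klk1 levels outside STIFF. A Klk1 UMI was in 80 HR+ cells of STIFF (7.44%), 4 of SOFT (0.390%), 8 of COL1 (1.53%) and 9 of MATR (0.721%). The highest cell held 263 UMIs in STIFF, 32 in SOFT, 94 in COL1 and 411 of the 495 UMIs in MATR. Without the highest cell of each condition the levels were 107 CPM in STIFF, 1.21 CPM in SOFT, 22.9 CPM in COL1 and 4.73 CPM in MATR. The ratio of COL1 to MATR was then 4.84 and that of SOFT to MATR 0.256, while STIFF was 88.3-fold above SOFT. With tags read by the margin rule, COL1 and MATR were 1.01-fold apart.

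**Figure D3:**
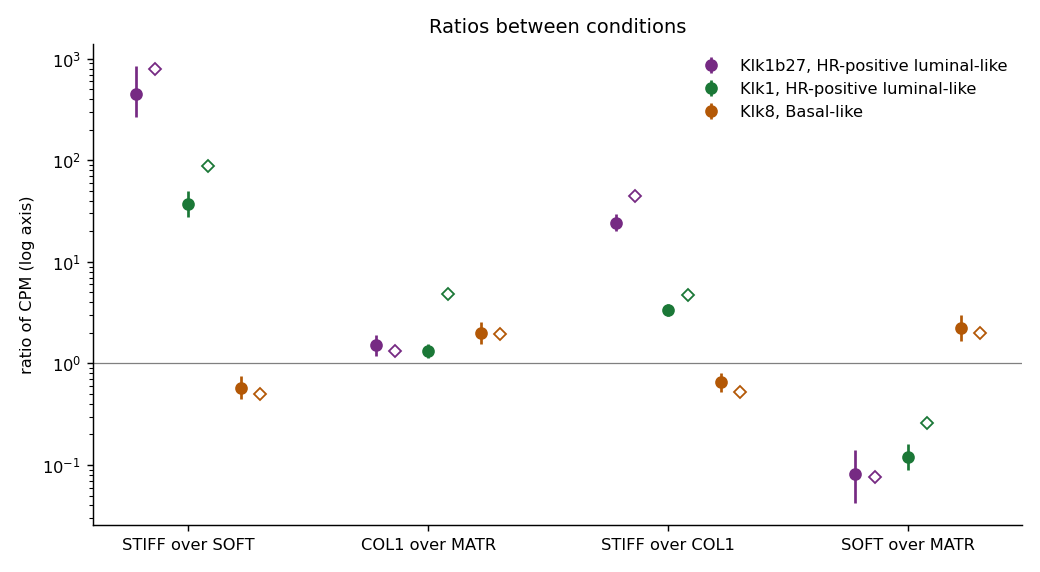
Ratios of CPM (log axis) for Klk1b27 and Klk1 in HR+ cells and Klk8 in basal-like cells in the 4 comparisons, with exact 95% intervals from counting error; open diamonds leave out the highest cell of each condition. Klk1b27 has the widest span, from 453 for STIFF over SOFT to 0.0807 for SOFT over MATR.

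In HR- luminal-like cells Klk1 was at 15.9 CPM in STIFF, where 1 cell held 83 of 84 UMIs, and at 2.64 CPM in MATR, where 1 cell held all 22. No Klk1 UMI was counted in basal-like cells of STIFF, SOFT or MATR, and 1 was counted in COL1. Klk1 in immune-like cells was at 40.0 CPM in STIFF, 0 in SOFT, 0.765 CPM in COL1 and 1.86 CPM in MATR. Fibroblast-like cells had 21.3 CPM in STIFF, 0 in SOFT, 1.47 CPM in COL1 and 0 in MATR, and the STIFF level was 1.94 CPM without the cells of highest doublet score. The same step left 44.2 CPM in immune-like and 16.9 CPM in HR- luminal-like cells of STIFF. In the first HR+ cluster Klk1 was at 200.4 CPM in STIFF, 2.73 CPM in SOFT, 81.0 CPM in COL1 and 41.5 CPM in MATR, and in the second at 45.5 CPM in STIFF, 3.87 CPM in SOFT, 0.828 CPM in COL1 and 0.170 CPM in MATR. The first cluster was thus higher in each condition but SOFT. Over HR+ cells with tags ignored, Klk1 was at 85.4 CPM in the COL1 and STIFF pool and at 12.6 CPM in the MATR and SOFT pool.

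Klk1b27 and Klk1 were often counted in the same cells. In HR+ cells of STIFF, 55 cells had UMIs of both, which is 34.2% of the 161 cells with Klk1b27 and 68.8% of the 80 cells with Klk1. Of STIFF cells without Klk1b27, 2.74% had a Klk1 UMI. Cells with both numbered 0 in SOFT, 5 in COL1 and 1 in MATR. How reads that match more than 1 kallikrein gene were treated is not given in the sources used here, so the split of reads between Klk1b27 and its near copies is uncertain.

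The HR+ cells of STIFF were set out by their Klk1b27 UMIs, as a description of cells of 1 culture. The 97 cells with at least 5, the 64 with 1 to 4 and the 914 with none had median depths of 12382, 12013.5 and 12258.5 UMIs and median doublet scores of 0.0329, 0.0342 and 0.0386. Depths and doublet scores lay close together in the 3 sets. The first HR+ cluster held 94.8% of the cells with at least 5, 67.2% of those with 1 to 4 and 47.0% of those with none. The levels that follow were not set out within a cluster, so they cannot be told apart from differences between the HR+ clusters. Klk1 was at 1017 CPM in the cells with at least 5, 85.1 CPM in those with 1 to 4 and 24.3 CPM in those with none. Gpx3, a secreted glutathione peroxidase, followed the same order at 5424, 2601 and 1121 CPM, as did F3, the tissue factor that starts coagulation, at 608, 474 and 247 CPM. Pgr, the progesterone receptor, was at 239, 242 and 233 CPM and Esr1, the oestrogen receptor, at 42.3, 41.5 and 35.7 CPM. The prolactin receptor Prlr was at 3917, 3579 and 2978 CPM. Other listed HR+ markers went both ways: Cited1 was higher in the cells with at least 5, at 472, 413 and 283 CPM. Lower there were Ly6a, at 1005, 1790 and 2082 CPM, Wnt4, at 194, 269 and 333 CPM, and Areg, at 2773, 2917 and 3627 CPM. Genes lower in the cells with at least 5 included Lcn2, an iron-carrier binding protein, at 307, 761 and 884 CPM, the antimicrobial lectin Reg3b at 6.14, 17.0 and 86.5 CPM, and the fatty acid receptor Ffar4 at 29.3, 86.2 and 123 CPM. The protease inhibitors went both ways: Slpi, at 42.3, 56.4 and 113 CPM, and Serpinb5, at 63.4, 119 and 128 CPM, were lower there, whereas Serpine2, at 152, 158 and 119.6 CPM, and Spint2, at 1082, 976 and 934 CPM, were higher than in the cells with none.

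**Figure D4:**
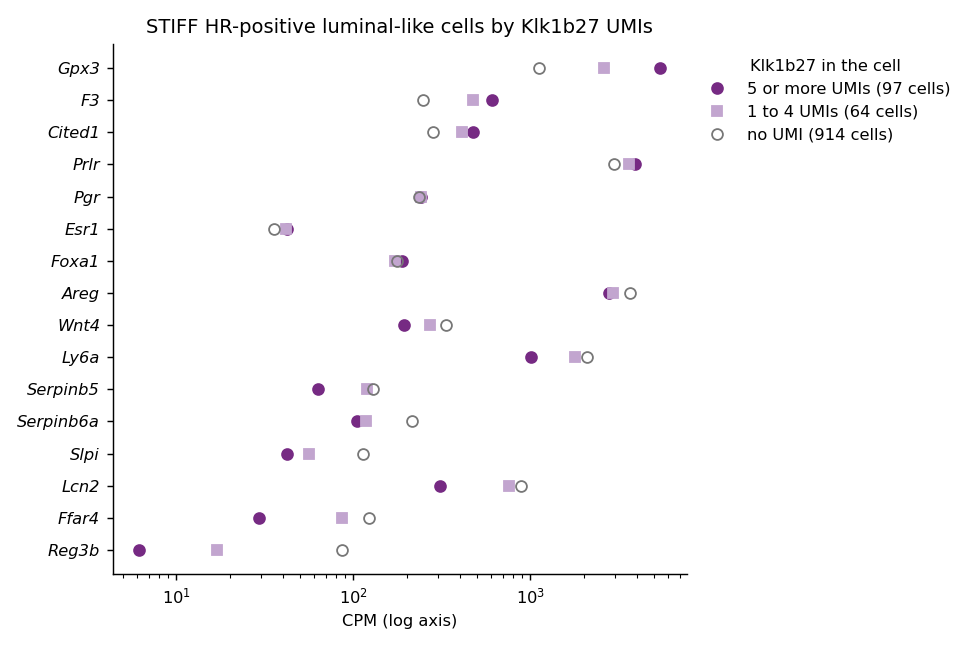
Level in CPM (log axis) of 16 genes in HR+ cells of STIFF with at least 5 (97 cells), 1 to 4 (64 cells) or 0 (914 cells) Klk1b27 UMIs. Gpx3 and F3 are highest, and Lcn2 and Reg3b lowest, in the cells with at least 5.

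Klk8 did not follow the luminal label. It was highest in basal-like cells, in which all 10 listed basal markers reached 20 CPM. Basal markers summed to 10110 CPM in STIFF, 7689 CPM in SOFT, 8158 CPM in COL1 and 9517 CPM in MATR there. HR- luminal markers summed to 4911, 5421, 7011 and 5333 CPM in the same order, and HR+ markers to 1706, 1686, 832 and 1096 CPM. Whether barcodes with 2 cells account for these was not tested. The basal level of Klk8 was 49.1 CPM in STIFF (41.8 to 57.4, 158 UMIs in 168 cells), 85.0 CPM in SOFT (69.1 to 103, 99 UMIs in 71 cells), 75.4 CPM in COL1 (64.9 to 87.2, 184 UMIs in 215 cells) and 38.0 CPM in MATR (30.7 to 46.4, 94 UMIs in 168 cells). SOFT and COL1 had overlapping intervals, as did STIFF and MATR, and the first pair lay above the second. The ratio of STIFF to SOFT was 0.578 (0.447 to 0.751) and that of STIFF to COL1 0.651 (0.523 to 0.810). COL1 was 1.99-fold above MATR (1.54 to 2.58), and SOFT 2.24-fold above MATR (1.67 to 3.002). By a 2-fold limit, Klk8 passed in SOFT over MATR, as did 0.663% of genes measured in basal-like cells. It did not pass as lower in STIFF than SOFT, beside 0.849% of genes, as lower in STIFF than COL1, beside 0.97%, or as higher in COL1 than MATR, beside 0.568%. These calls turned with the processing: COL1 was 2.20-fold above MATR by the relative tag rule and also without the highest doublet scores, 2.33-fold with each pool clustered alone and 2.01-fold with TMM scaling, and STIFF was 2.15-fold below SOFT by the margin rule.

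A Klk8 UMI was in 45 of 168 basal-like cells of STIFF (26.8%), 36 of 71 of SOFT (50.7%), 71 of 215 of COL1 (33.0%) and 48 of 168 of MATR (28.6%), at median depths of 17305.5, 13157, 8080 and 11427 UMIs. At 5000 UMIs per cell the shares were 12.1% in STIFF, 25% in SOFT, 23.0% in COL1 and 14.7% in MATR. At 2000 UMIs per cell they were 7.19% in STIFF, 18.8% in SOFT, 9.09% in COL1 and 7.14% in MATR, so SOFT was highest at both depths while COL1 lay near SOFT at the first and near STIFF and MATR at the second. In HR+ cells the share with a Klk8 UMI was 0.558% in STIFF, 0.975% in SOFT, 0.573% in COL1 and 0.401% in MATR, at median depths of 10349 to 12984.5 UMIs, and the basal shares lay above it in each condition. The highest basal-like cell held 44 UMIs in STIFF and 8 to 19 in the other conditions. Basal-like cells with neither tag had 68.6 CPM in the COL1 and STIFF pool and 91.6 CPM in the MATR and SOFT pool.

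In the other classes Klk8 was lower than in basal-like cells of the same condition. Fibroblast-like cells followed, with 13.8 CPM in STIFF, 14.0 CPM in SOFT, 24.6 CPM in COL1 and 24.8 CPM in MATR. HR- luminal-like cells had 7.93 CPM in STIFF, 8.67 CPM in SOFT, 6.98 CPM in COL1 and 5.87 CPM in MATR. The unnamed cluster with HR- and basal markers had 28.03 CPM in STIFF, 8.56 CPM in SOFT, 11.9 CPM in COL1 and 12.7 CPM in MATR. HR+ cells, at 0.281 to 0.874 CPM, were lowest in STIFF, COL1 and MATR, and in SOFT they were close to immune-like cells, at 0.815 CPM.

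Among the other kallikreins, those with the most UMIs in HR+ cells of STIFF were Klk1b copies. Klk1b21 had 288 UMIs in HR+ cells of STIFF, 4 in SOFT, 7 in COL1 and 41 in MATR. Klk1b24 had 207 in STIFF, 0 in SOFT, 10 in COL1 and 52 in MATR, which is at least 67.8-fold higher in STIFF than SOFT when 3 counts are taken for SOFT. Klk1b1 had 70 in STIFF and 5 in MATR, and none in SOFT or COL1, at least 22.9-fold higher in STIFF than SOFT. Klk1b8 had 49 in STIFF, 1 in SOFT, 2 in COL1 and 4 in MATR. The 97 cells with at least 5 Klk1b27 UMIs held 92.9% of the HR+ UMIs of Klk1b1 in STIFF, 75.5% of those of Klk1b8, 73.4% of Klk1b24 and 72.2% of Klk1b21, beside 79.3% of Klk1. Klk1b26 differed: none of its 79 UMIs in tagged cells was in an HR+ cell, while 26 were in HR- cells and 50 in unnamed clusters. Klk10, with 132 UMIs, and Klk11, with 118, were counted mostly in HR- cells and the unnamed clusters, as was Klk14, with 26 of 75 UMIs in HR- cells and 37 in the unnamed clusters. All 16 UMIs of Klk6 were in the unnamed clusters. Klk1b11 had 45 UMIs in tagged cells, of which 6 were in HR+ cells of STIFF, 1 of SOFT, 3 of COL1 and 0 of MATR.

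**Figure D5:**
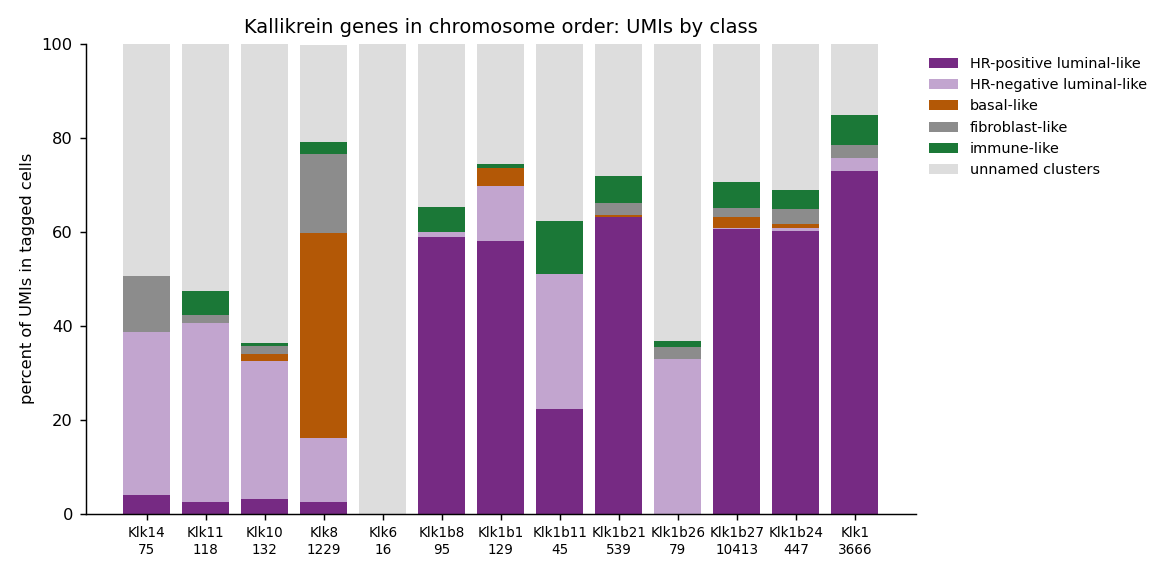
Percent of each kallikrein gene's UMIs in tagged cells that fell in each class, for 13 genes in chromosome order, with the UMI total of each gene; endothelial-like cells are not drawn. Klk1b27 and Klk1 lie mainly in HR+ and unnamed clusters, and Klk8 has the largest basal-like part.

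Genes on which kallikreins act, or which act on them, were set out between STIFF and SOFT in HR+ cells, where 2.38% of all genes were at least 2-fold higher and 1.46% at least 2-fold lower in STIFF. The lists are too short to be read against these shares. Members were counted as measured at 5 CPM or more in 1 condition. Of the 26 kallikrein genes 4 were measured, each of them only through its level in STIFF: beside Klk1b27 and Klk1 they were Klk1b21, at 19.0 CPM in STIFF and 0.269 CPM in SOFT, and Klk1b24, at 13.7 CPM in STIFF and 0 in SOFT. The median log2 ratio over all 11289 genes was 0.017. Of 14 kinin system genes 3 were measured, and none was 2-fold apart. Ace, which degrades bradykinin, was highest by ratio, at 48.2 CPM in STIFF and 30.9 CPM in SOFT, and the carboxypeptidase Cpd lowest, at 36.1 CPM in STIFF and 37.2 CPM in SOFT. Of the 4 protease-activated receptors only F2rl1 was measured, at 5.02 CPM in STIFF and 7.06 CPM in SOFT. Of 13 serine protease inhibitors 8 were measured, with a median log2 ratio of -0.17: Serpinb6b was at least 2-fold lower, at 9.78 CPM in STIFF and 23.2 CPM in SOFT. Serpine2, an inhibitor of thrombin and plasminogen activators, had the highest ratio of that list, at 125 CPM in STIFF and 81.0 CPM in SOFT.

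Among 10 measured genes of the 11 for hormone signalling, none was 2-fold apart between STIFF and SOFT, with a median log2 ratio of 0.21. Prlr was highest among them, at 3106 CPM in STIFF and 1752 CPM in SOFT. Of 10 other secreted or membrane serine proteases 9 were measured, and Prss23 alone was 2-fold higher, at 317 CPM in STIFF and 151 CPM in SOFT. Prss22 was lowest, at 32.7 CPM in STIFF and 54.7 CPM in SOFT. Of 11 genes known from earlier results to mark luminal states in these cells, 3 were at least 2-fold higher and 2 lower, and nothing is read from a list chosen on these cells; by log2 ratio Gpx3 was highest, at 1630.1 CPM in STIFF and 194 CPM in SOFT, and Ffar4 lowest, at 111 CPM in STIFF and 308 CPM in SOFT.

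The genes most like each member were found by the Pearson correlation of log2(CPM + 10) over 20 units of class and condition, among 12639 genes. These units share libraries and cultures, and the correlations are a description. For Klk1b27 they were Hist1h4h (0.839), Ppp2r2c (0.837), Tox2 (0.816), Dgki (0.807) and Kcnma1 (0.803). For Klk1 they were Ppp2r2c (0.913), Prrt1 (0.868), Gm26660 (0.868), Prr15 (0.866) and Tox2 (0.858). Ppp2r2c, a regulatory subunit of protein phosphatase 2A, was at 20.9 CPM in HR+ cells of STIFF, 2.15 CPM in SOFT, 5.14 CPM in COL1 and 7.69 CPM in MATR, so STIFF was highest and SOFT lowest as for Klk1b27, but MATR lay above COL1. For Klk8 they were Npr2 (0.966), Ephb2 (0.965), Cox4i2 (0.955), Gnai1 (0.952) and Fndc4 (0.951). Cox4i2, a subunit isoform of cytochrome c oxidase, was at 97.3 CPM in basal-like cells of STIFF, 192 CPM in SOFT, 233 CPM in COL1 and 239 CPM in MATR, so its order of conditions differed from that of Klk8. The correlation of Klk1b27 with Klk1 was 0.762, that of Klk8 with Klk1b27 -0.133 and that of Klk8 with Klk1 -0.505. With a pseudocount of 1 CPM, 2 of the 5 genes for Klk1b27, 3 for Klk1 and 0 for Klk8 came up again.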

How the data were processed

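Single-cell 3′ RNA libraries of organoid cells were measured in 2 pools. The deposited matrices hold UMI counts per gene and barcode, raw per the file headers; Cell Ranger 5.0.0, Seurat 4.2.0 and mm10 stand in the submitters' processing notes. Hashtag counts came from the same deposited matrices. How barcodes were chosen and reads shared by kallikrein genes were counted is not given in the sources used here.

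The members and lists were chosen with earlier results of these data known. Kept barcodes had 1000 UMIs and 500 genes or more, and no more than 15% of their UMIs were mitochondrial. Tags were called with HTODemux of Seurat 5.3.0 (R 4.3.3) at a quantile of 0.99. Tagged cells were clustered with scanpy 1.11.5 in Python 3.11.15 (2000 variable genes without kallikreins, 30 components, 15 neighbours, Leiden resolution 0.5), and barcodes without 1 clear tag were placed by their 15 nearest neighbours. A class was given to a cluster by the marker list with at least 3 markers at 20 CPM and 2-fold above the other clusters, and none was given where a second list reached 0.5 of the first. Scrublet marked 0 of 9568 and 754 of 7945 barcodes, so leaving out the top 7.5% of scores was an alternative.

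UMIs were summed per class and condition and divided by their total. Levels have exact Poisson, shares Clopper-Pearson and ratios conditional binomial intervals of 95%. With 1 culture per condition no test was made. Ratios of CPM were ranked over genes with at least 50 UMIs in the 2 conditions together. Log2 ratios are of CPM + 10, which understates the change of low genes. Named genes were the members, kallikreins of at least 20 UMIs, the 5 genes most correlated with each member, and the highest and lowest of each list (1 is not reported here); genes of the STIFF cells set out by Klk1b27 came from these lists and from earlier results. edgeR 4.0.16 gave TMM factors as an alternative scaling. Of the steps, only the ratio of CPM and its interval were tested on simulated data, drawn with Poisson error. Such draws lack the concentration of UMIs in few cells seen here. Other alternatives were stricter cell filters, 2 other tag rules, exchanged tags, another clustering and other thinning depths.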

Additional observations from a re-analysis of the deposited data

Results flagged for a closer look

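Barcodes that carried both hashtags of a pool were used in no comparison, and all 3 genes were above the level that a count of 0 allows there, 0.242 CPM with COL1 and STIFF and 0.279 CPM with MATR and SOFT. Klk1b27 was at 146.0 CPM in the 305 such barcodes of the COL1 and STIFF pool, where 61 had a UMI and 32 at least 5, and at 2.32 CPM in the 277 of the MATR and SOFT pool. Klk1 was at 26.8 CPM with COL1 and STIFF and 0.557 CPM with MATR and SOFT. Klk8 was at 10.6 CPM with COL1 and STIFF and 8.08 CPM with MATR and SOFT. These barcodes had medians of 38514 and 36150 UMIs.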

How the results depend on the processing

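No paired analysis was possible because each condition was 1 culture with no replicate number. Values here are log2 ratios of CPM + 10 in HR+ cells for Klk1b27 and Klk1 and in basal-like cells for Klk8 unless said. With tags exchanged, each comparison takes on the values of the other conditions by construction: Klk1b27 was -3.95 for STIFF over COL1, 0.94 for SOFT over MATR, 0.34 for STIFF over SOFT and 5.22 for COL1 over MATR. Klk1 was then -1.51, 1.5002, 0.32 and 3.33 in the same order, and Klk8 0.53, -0.99, 0.83 and -0.68; Klk8 in HR+ cells, SOFT over MATR, was -0.081. With tags as paired, the 9 alternatives run kept the sign for each of these comparisons of Klk1b27, Klk1 and basal Klk8. The margin rule gave Klk1b27 5.02 for STIFF over SOFT, 1.99 for COL1 over MATR and 2.10 for STIFF over COL1, and Klk1 3.01 for STIFF over SOFT and 0.0068 for COL1 over MATR. The relative rule gave Klk1b27 0.78 for COL1 over MATR and 3.41 for STIFF over COL1. Without the cell with the most UMIs, Klk1b27 was 4.39 for STIFF over COL1 and -0.63 for SOFT over MATR, and Klk1 1.16 for COL1 over MATR, 1.83 for STIFF over COL1 and -0.39 for SOFT over MATR. This alternative and those for Klk8 in basal-like cells were chosen after seeing the data. Thinned to 2000 UMIs, the shares with a UMI were 9.54% in STIFF and 1.35% in COL1 for Klk1b27, 4.77% in STIFF for Klk1, and 7.19% in STIFF, 9.09% in COL1 and 7.14% in MATR for basal Klk8. Fewer UMIs per cell lower the share expected of the same cells, but the lower depth also kept more cells. Genes at least 2-fold apart in HR+ cells numbered 434 for STIFF over SOFT, 205 for COL1 over MATR, 249 for STIFF over COL1 and 303 for SOFT over MATR; with at least 200 UMIs they numbered 181, 62, 81 and 144, and with no filter 4391, 4417, 4578 and 3991. The cause of the differences between tag rules was not tested. One culture per condition leaves the spread between cultures unknown, and at 13 UMIs Klk1b27 in SOFT limits the ratio to a wide interval.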
